A study of Arabidopsis thaliana with 8 samples.

Results

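A set of 28 Arabidopsis thaliana genes gave a higher signal on every array of the tic40 mutant than on any wild-type array. The arrays compared total RNA of wild-type plants (WT) with that of the tic40 mutant, both of ecotype Columbia 0, on 4 arrays per genotype numbered 1 to 4. The mutant allele, the tissue, the plants' age and how they were grown are not in the labels. Nor do the labels tell whether separate plants were sampled, so each SD below covers only the spread over 4 arrays, part or all of which may be technical. Each of 3439 probes has 1 deposited intensity per array.

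The 28 genes were chosen by their own genotype difference in the same 8 arrays. A probe had to name exactly 1 gene, to have a deposited value above 0 on all 8 arrays, and to have a mean log2 level under the 90th percentile of probes, which lay at a normalised intensity of 1.83. Its lowest tic40 value had to lie above its highest WT value, and the mean log2 difference, tic40 minus WT, had to be at least 0.5. Of 692 single-gene probes, 612 were above 0 on all arrays and 549 were also under the brightness limit. Of these 549, 30 (5.46%) met both conditions on the difference, and 2 of the 30, AT1G61990 and Cpn60beta3, were left out by name. Among all 2751 probes above 0 and under the limit, whatever their annotation, 170 (6.18%) met the same conditions and 272 (9.89%) met them in the opposite direction. Because these values chose the genes, the sizes below are a description and no test of the genotype difference is given. The probe of AT5G22340 had the smallest difference inside the limit (0.60), and that of AT2G37750, at 0.48 and also separated, was the nearest outside it. The narrowest gap between the genotypes inside the rule was 0.0027 on the log2 scale for AT2G20920, and AT1G35510 missed separation with a gap of -0.0019 in spite of a log2 difference of 1.15.

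TIC40 is a protein of the inner envelope membrane of the chloroplast that assists the translocon there. Most chloroplast proteins are encoded in the nucleus, made in the cytosol with an N-terminal transit peptide and threaded through translocons of the outer and inner envelope, and plants without TIC40 are pale and import such proteins slowly. Transcripts of nuclear genes are known to respond to the state of the plastid. No probe of the annotation lists TIC40 itself, so its transcript is not analysed here.

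The WT arrays stood apart in pairs, and this touches every result below. Over the 2751 eligible probes (above 0 on all arrays and under the brightness limit), normalised log2 values of WT samples 1 and 2 correlated with each other at 0.910 and those of WT samples 3 and 4 at 0.931, but between these pairs the correlations were 0.505 to 0.523. The 4 tic40 arrays correlated at 0.899 to 0.974 with each other, at 0.793 to 0.839 with WT samples 1 and 2, and at 0.551 to 0.637 with WT samples 3 and 4. These correlations describe arrays across probes, which share their scaling and are not independent. The labels name no batch, and the source of the split was not tested. Each difference is therefore given over all samples and also within samples 1 and 2 and within samples 3 and 4. The genotypes are matched by sample number alone, and the labels do not say whether equal numbers denote matched samples.

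Over the 28 genes, the log2 difference ran from 0.60 to 2.74 with a median of 1.03, beside a median of -0.06 over the 2751 eligible probes. It was at least 1, a doubling, for 15 genes over all samples, and in both pairs of samples for 3. The rule chose the genes by this difference, so these counts follow in part from it, and the share of eligible probes was not computed. As far as their products are known, 5 genes encode enzymes of metabolism or related proteins. A further 3 encode plastid proteins of photosystem assembly, fatty acid synthesis and plastoglobules, and 3 belong to ribosomes and organelle RNA. Signalling, defence and protein turnover account for 5, and DNA repair and nucleic acid binding for 3. For the remaining 9 no role is given here. These groups were formed after the genes were known and describe them only. In RNA of whole samples, more cells of a type that makes a transcript and more of it per cell cannot be told apart.

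**Figure D1:**
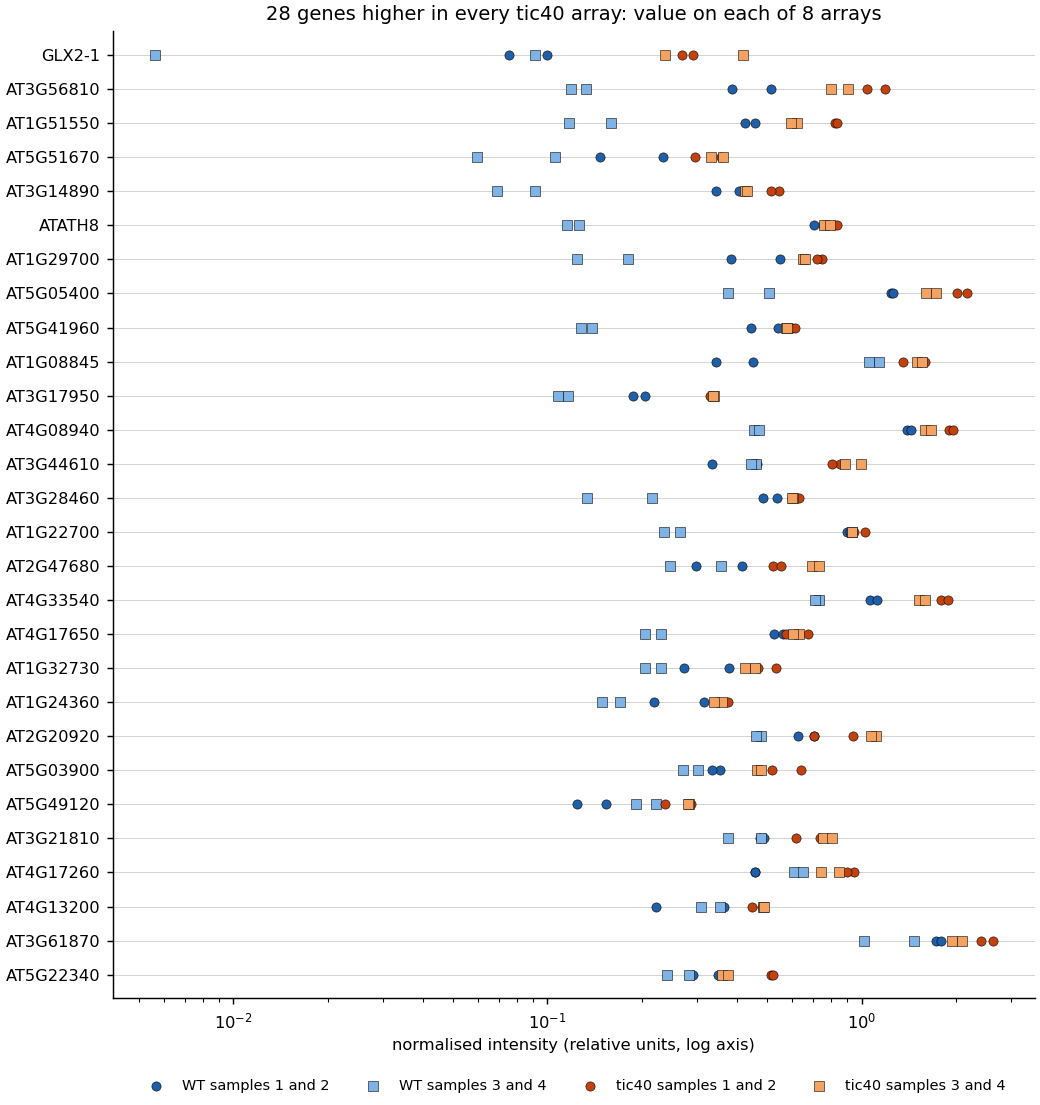
Normalised intensity (relative units, log axis) of each of the 28 genes on each of the 8 arrays, with genes ordered by their log2 difference. Blue symbols are WT and orange symbols tic40, circles mark samples 1 and 2 and squares samples 3 and 4. All orange symbols lie to the right of the blue ones, as the rule demands, and in 20 rows both light blue squares lie to the left of both dark blue circles.

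Among the enzymes, GLX2-1 had the largest difference over all 8 arrays, a rank that rested on WT sample 3. It encodes a protein of the glyoxalase II family of metallohydrolases. The family is known for members that release D-lactate from lactoylglutathione in the detoxification of methylglyoxal. GLX2-1 itself is not credited with that activity here. Its normalised intensity was 0.0995, 0.0752, 0.00561 and 0.0913 in WT samples 1 to 4 and 0.268, 0.290, 0.237 and 0.419 in tic40 samples 1 to 4. WT sample 3 was far below the other WT samples, and the log2 difference of 2.74 (6.70-fold) over all samples was 1.75 without it, next to 1.76 for AT3G56810 without that sample. The WT signals were among the dimmest of the arrays, at percentiles 0.521 to 5.82 of the values above 0, so the size of this difference rests on signals near the lower end of the scale. Within samples 1 and 2 the log2 difference was 1.69. Within samples 3 and 4 it was 3.80, but the signal in WT sample 3 lay under the floor of 0.0177 given to zeros on that array, so this size has no firm basis.

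A metallo-beta-lactamase fold is shared by the products of GLX2-1, AT1G29700 and AT4G33540. AT1G29700 lay at 0.385, 0.549, 0.180 and 0.124 in WT samples 1 to 4 and at 0.751, 0.722, 0.650 and 0.663 in tic40. All tic40 values were close together, while WT samples 3 and 4 were far below WT samples 1 and 2, and the log2 difference of 1.41 (2.65-fold) was 0.68 for samples 1 and 2 and 2.13 for samples 3 and 4. AT4G33540 went from 0.905 ± 0.215 in WT to 1.70 ± 0.169 in tic40 (mean ± SD, n = 4 each), a log2 difference of 0.93 that was 0.76 in samples 1 and 2 and 1.11 in samples 3 and 4.

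AT4G17260, which encodes a lactate dehydrogenase, the enzyme that interconverts pyruvate and lactate, showed the opposite order of the WT pairs. It is described with all its values because of that order, which was seen first. Its intensity was 0.459, 0.459, 0.609 and 0.649 in WT samples 1 to 4 and 0.943, 0.902, 0.845 and 0.742 in tic40 samples 1 to 4. Here WT samples 1 and 2 were the low ones, and the log2 difference was 1.01 in samples 1 and 2 against 0.33 in samples 3 and 4, for 0.67 over all samples. AT4G17650 encodes a relative of COQ10, a lipid-binding protein needed for the function of ubiquinone in yeast mitochondria. It went from 0.380 ± 0.189 to 0.622 ± 0.0440, a log2 difference of 0.86, of which 0.20 was found in samples 1 and 2 and 1.52 in samples 3 and 4. Over the 5 genes of the metabolism group, AT4G17650 included, the median log2 difference was 0.93.

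Grouping was by function, and another group also holds a product that serves the chloroplast, that of AT3G28460. Of the 3 genes grouped under photosystem assembly, fatty acid synthesis and plastoglobules, AT1G22700 had the largest difference. It encodes a tetratricopeptide repeat protein of the thylakoid that is needed for the assembly of photosystem I. Its values were 0.901, 0.920, 0.235 and 0.265 in WT samples 1 to 4 and 1.03, 0.949, 0.931 and 0.934 in tic40 samples 1 to 4. WT samples 1 and 2 lay just under the tic40 samples, while WT samples 3 and 4 were far lower. The log2 difference of 1.01 was accordingly 0.12 (1.08-fold) in samples 1 and 2 and 1.90 (3.73-fold) in samples 3 and 4, and it was 0.67 over all samples when WT sample 3 was left out. AT1G24360 encodes a 3-oxoacyl-acyl carrier protein reductase of plastid fatty acid synthesis and went from 0.213 ± 0.0734 to 0.355 ± 0.0155. Its log2 difference was 0.80, with 0.46 and 1.14 in the 2 pairs of samples. AT4G13200, whose product is found in plastoglobules, the lipid droplets of thylakoids, went from 0.312 ± 0.0651 to 0.476 ± 0.0191. Its log2 difference of 0.63 was similar in the pairs, at 0.70 for samples 1 and 2 and 0.56 for samples 3 and 4. Without WT sample 1 it was 0.48, under the limit of the rule.

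The 3 genes of ribosomes and organelle RNA had log2 differences of 1.05 to 1.19. AT1G08845, a gene of the L18 family of ribosomal proteins, measured 0.450, 0.343, 1.06 and 1.14 in WT samples 1 to 4 and 1.36, 1.59, 1.50 and 1.56 in tic40 samples 1 to 4. WT samples 1 and 2 were the low ones, and the log2 difference of 1.90 (3.74-fold) in samples 1 and 2 was the largest of the 28 genes in that pair, against 0.48 in samples 3 and 4. It was also the only one of the 28 that appeared on another probe, which the annotation assigns to 3 genes. That probe did not separate the genotypes, with a log2 difference of 0.19, values of 1.60 to 3.28 in WT and of 2.40 to 2.83 in tic40. On it both WT samples 1 and 2 lay above both tic40 samples 1 and 2, the reverse of the single-gene probe in that pair. In samples 3 and 4 both tic40 values were the higher ones, as on the single-gene probe. The order of the WT pairs was also reversed, with WT samples 1 and 2 above WT samples 3 and 4. The several-gene probe was brighter than the single-gene probe on every array, and its mean level lay above the brightness limit of the rule. Which of its 3 genes gave the signal is not known.

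AT4G08940 encodes a protein with a plant organelle RNA recognition domain, a domain known from splicing factors of organelle introns. It lay at 1.40, 1.44, 0.455 and 0.470 in WT samples 1 to 4 and at 1.90, 1.96, 1.59 and 1.67 in tic40. The log2 difference of 1.13 was 0.44 in samples 1 and 2 and 1.82 in samples 3 and 4, where the WT values were lower. AT3G28460, which encodes a methyltransferase for ribosomal RNA of the chloroplast, went from 0.343 ± 0.199 to 0.609 ± 0.0159. Its log2 difference of 1.05 was 0.67 without WT sample 3, and within the pairs it was 0.27 in samples 1 and 2 and 1.82 in samples 3 and 4.

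Signalling, defence and protein turnover were represented by 5 genes with a median log2 difference of 1.33. AT1G51550 encodes an F-box protein with Kelch repeats, a type of adaptor that selects proteins for ubiquitin ligases. Its intensity was 0.459, 0.425, 0.159 and 0.117 in WT samples 1 to 4 and 0.823, 0.837, 0.622 and 0.598 in tic40 samples 1 to 4. In both genotypes samples 1 and 2 were above samples 3 and 4, more so in WT, and the log2 difference was 0.91 in samples 1 and 2 and 2.16 in samples 3 and 4 (1.53 over all samples). AT5G05400 encodes a disease resistance protein with a nucleotide-binding domain and leucine-rich repeats. It measured 1.25, 1.26, 0.507 and 0.376 in WT samples 1 to 4 and 2.01, 2.17, 1.73 and 1.60 in tic40 samples 1 to 4, with the same order of the pairs. The log2 difference of 1.33 (2.52-fold) was 0.74 in samples 1 and 2 and 1.93 in samples 3 and 4.

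ATATH8 encodes an atypical kinase of the ABC1 family, whose members in chloroplasts and mitochondria are known for their part in prenylquinone metabolism. Its values were 0.755, 0.704, 0.115 and 0.126 in WT samples 1 to 4 and 0.817, 0.835, 0.762 and 0.792 in tic40 samples 1 to 4. WT samples 1 and 2 nearly reached the tic40 samples, and the log2 difference of 1.44 over all samples was 0.18 (1.13-fold) in samples 1 and 2 and 2.69 (6.46-fold) in samples 3 and 4. No other gene of the 28 had a wider split of WT, 2.60 on the log2 scale between the pairs.

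AT3G44610 encodes a protein kinase of the AGC class, a class that includes regulators of auxin transport, and was singled out after its values were seen because its pairs of samples gave the same size. It lay at 0.335, 0.463, 0.463 and 0.444 in WT samples 1 to 4 and at 0.855, 0.803, 0.997 and 0.886 in tic40 samples 1 to 4. The genotypes were separated by 0.79 on the log2 scale, the widest gap after GLX2-1, and the log2 difference was 1.07 in samples 1 and 2 and 1.05 in samples 3 and 4, or 2.09-fold over all samples. AT5G49120 is an FCS-like zinc finger gene of a family whose products bind the energy-sensing kinase SnRK1. It went from 0.172 ± 0.0426 to 0.271 ± 0.0230, a log2 difference of 0.68. Like AT4G17260 and AT1G08845, it had its larger log2 difference in samples 1 and 2 (0.92, against 0.45 in samples 3 and 4).

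In the group of DNA repair and nucleic acid binding, AT3G14890 encodes a DNA 3'-phosphatase that clears blocked ends during base excision repair and active DNA demethylation. Its intensity was 0.407, 0.345, 0.0913 and 0.0691 in WT samples 1 to 4 and 0.545, 0.514, 0.424 and 0.430 in tic40 samples 1 to 4. The lowest tic40 sample stood only 0.06 on the log2 scale above WT sample 1, and the log2 difference of 1.46 was 0.50 in samples 1 and 2 and 2.43 in samples 3 and 4. AT2G47680, which encodes a helicase with a CCCH zinc finger, went from 0.329 ± 0.0737 to 0.625 ± 0.104, a log2 difference of 0.94 (0.61 and 1.27 in the pairs). AT3G21810, another gene for a CCCH zinc finger protein, went from 0.454 ± 0.0526 to 0.727 ± 0.0795, a log2 difference of 0.68 (0.49 and 0.88 in the pairs).

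Nothing is said here of the role of the other 9 genes, whose median log2 difference was 0.84. AT3G56810 was the highest of them, at 0.514, 0.387, 0.133 and 0.119 in WT samples 1 to 4 and at 1.04, 1.18, 0.798 and 0.906 in tic40 samples 1 to 4. Its log2 difference of 2.04 (4.11-fold) was 1.32 in samples 1 and 2 and 2.76 in samples 3 and 4, so that along with GLX2-1 and AT3G44610 it was among the 3 genes with at least a doubling in both pairs. AT3G17950 had the tightest tic40 values of the 28 genes, 0.331, 0.330, 0.338 and 0.336, with WT values of 0.205, 0.187, 0.117 and 0.108. The genotypes were separated by 0.68 on the log2 scale, and the log2 difference of 1.17 was 0.75 in samples 1 and 2 and 1.59 in samples 3 and 4.

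AT5G51670 measured 0.233, 0.147, 0.105 and 0.0596 in WT samples 1 to 4 and 0.295, 0.357, 0.331 and 0.362 in tic40 samples 1 to 4. The WT values were spread more widely than the tic40 values, and the log2 difference of 1.47 was 0.81 in samples 1 and 2 and 2.13 in samples 3 and 4. AT5G41960 was at 0.446, 0.542, 0.128 and 0.139 in WT samples 1 to 4 and at 0.602, 0.613, 0.575 and 0.581 in tic40 samples 1 to 4. WT samples 3 and 4 were far below the rest, and the log2 difference of 1.21 was 0.31 in samples 1 and 2 and 2.12 in samples 3 and 4. AT5G03900 went from 0.315 ± 0.0369 to 0.526 ± 0.0805, a log2 difference of 0.74. Like AT3G44610, it had nearly equal log2 differences in the pairs, 0.75 in samples 1 and 2 and 0.72 in samples 3 and 4. AT1G32730 had a log2 difference of 0.84, which was 0.64 for samples 1 and 2 and 1.03 for samples 3 and 4. For AT2G20920 it was 0.75, with 0.29 for samples 1 and 2, under the limit of the rule, and 1.21 for samples 3 and 4. The other 2 were AT3G61870 at 0.62 (0.52 and 0.72 in the pairs) and AT5G22340 at 0.60 (0.70 and 0.50 in the pairs). In AT2G20920, tic40 sample 2 (0.708) equalled WT sample 2 (0.707) to within 0.0027 on the log2 scale, and its tic40 samples 3 and 4, at 1.11 and 1.07, were the highest. AT3G61870, at 1.50 ± 0.350 in WT and 2.26 ± 0.306 in tic40, was the brightest probe of the set, at percentile 89.9 of probe means, just under the limit.

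Most of the 28 genes had the same order of the WT samples, which the rule did not ask for. In 20 of 28 (71.4%) both WT samples 1 and 2 lay above both WT samples 3 and 4, against 37.7% of the 2751 eligible probes, and in 3 of 28 they lay below, against 43.1%. The rule fixes where the highest WT value may lie, and a low pair of WT samples enlarges the mean difference, so this share is not independent of the choice of genes. The median log2 difference between WT samples 1 and 2 and WT samples 3 and 4 was 0.76 over the 28 genes and -0.07 over the eligible probes. In tic40, samples 1 and 2 lay above samples 3 and 4 in 15 genes (32.5% of eligible probes) and below in 6 (38.2%), with a median log2 difference of 0.08. The log2 SD was larger in WT than in tic40 in 26 of 28 genes, and in 79.8% of the eligible probes.

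**Figure D2:**
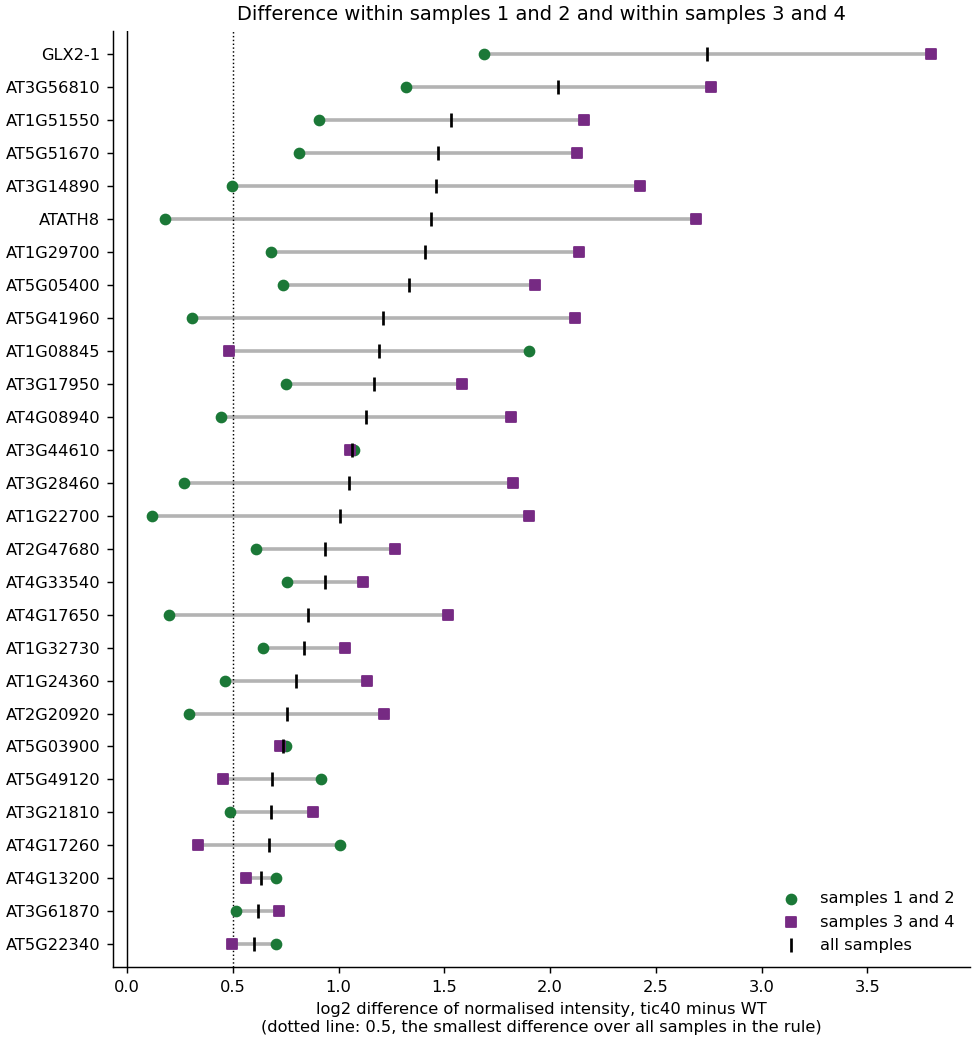
Log2 difference of normalised intensity, tic40 minus WT, of each gene within samples 1 and 2 (green circles), within samples 3 and 4 (purple squares) and over all samples (black ticks). The purple square lies to the right of the green circle in 21 of 28 genes, and 10 green circles and 4 purple squares lie left of the dotted line at 0.5. The count of 21 was not set beside the eligible probes.

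The pair of samples with the larger difference was samples 3 and 4 in 21 genes and samples 1 and 2 in 7. By arithmetic, samples 3 and 4 lead wherever the WT difference between the pairs exceeds that of tic40. The count thus largely restates the WT order above and was not set beside the eligible probes. The median log2 difference was 0.69 in samples 1 and 2, with a range of 0.12 to 1.90, and 1.39 in samples 3 and 4, with a range of 0.33 to 3.80 (GLX2-1, whose WT sample 3 lay under the floor). Their direction in each pair is fixed by the choice of genes and says nothing of its stability. A log2 difference of at least 0.5 was present in samples 1 and 2 in 18 of 28 genes (15.6% of eligible probes) and in samples 3 and 4 in 24 (23.6%), and in both pairs in 14. The share of eligible probes for both pairs was not computed. Since the rule asks for 0.5 over all samples, each gene had to reach it in at least 1 of the pairs. These counts are therefore not independent of the choice of genes. AT1G22700 (0.12), ATATH8 (0.18) and AT4G17650 (0.20) were the 3 genes under 0.25 in samples 1 and 2. In the 20 genes with high WT samples 1 and 2, the median was 0.58 in samples 1 and 2 and 1.82 in samples 3 and 4, while in the 3 genes with low WT samples 1 and 2 it was 1.01 and 0.45. The other 5 genes, GLX2-1, AT3G44610, AT2G47680, AT3G21810 and AT4G13200, had no such order in WT and had medians of 0.70 and 1.05.

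Leaving out WT samples 3 and 4 altogether, a comparison added after the data were seen, gave a median log2 difference of 0.59 and left 18 of the 28 genes within the rule. Among the genes it dropped, AT1G22700 had 0.08, ATATH8 0.14 and AT4G17650 0.19. Leaving out WT samples 1 and 2 gave a median of 1.38 and left 25 of the 28, dropping AT1G08845, AT5G49120 and AT4G17260.

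**Figure D3:**
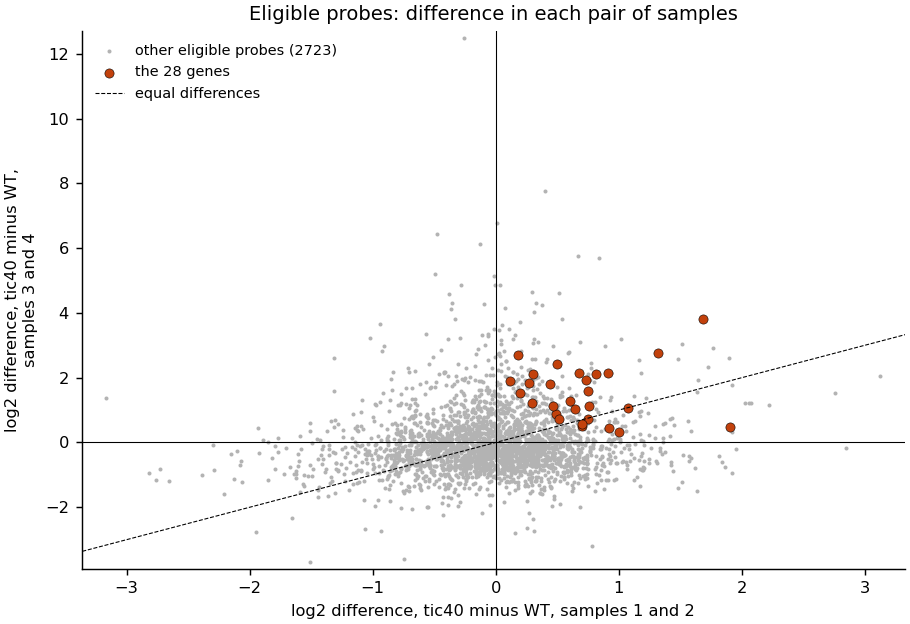
Log2 difference, tic40 minus WT, in samples 1 and 2 (horizontal) and in samples 3 and 4 (vertical) for the 28 genes (orange) and the other eligible probes (grey); the axes differ in scale and the dashed line marks equal differences. The 28 genes lie right of and above 0, as chosen, and 21 of them lie above the dashed line, a count not made for the grey probes. The topmost, GLX2-1 at 3.80, rests on a WT signal under the floor.

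The sizes also depended on the scaling of the arrays. The median deposited intensity was 0.361 and 0.354 on WT samples 1 and 2 and 0.559 to 0.604 on the other 6 arrays, and quantile normalization removes this difference. With the values as deposited, the median log2 difference of the eligible probes was 0.35, all 28 genes still met the rule with a median log2 difference of 1.38, and 578 probes met it as higher against 55 as lower, or 91.3% higher, compared with 38.5% after quantile normalization. Relative to that shift of 0.35, each of the 28 genes kept a log2 difference of at least 0.32. With each array centred on its median, 187 probes met the rule as higher and 213 as lower, and 23 of the 28 genes remained. The 5 that did not remain, ATATH8, AT4G08940, AT1G22700, AT2G20920 and AT3G61870, lost the separation of the genotypes, with gaps of -0.01 to -0.23 on the log2 scale. Of these 5, only AT3G61870 was also under 0.5, with a log2 difference of 0.32.

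**Figure D4:**
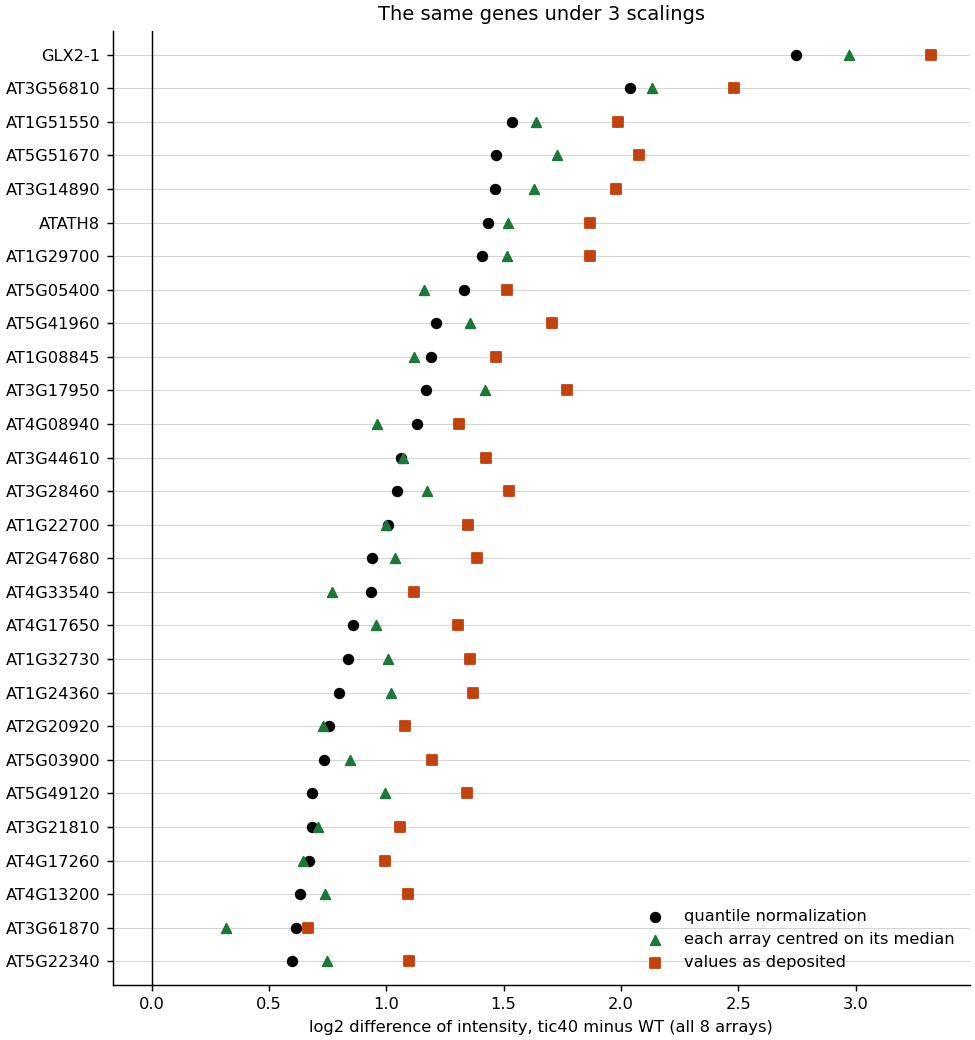
Log2 difference of intensity, tic40 minus WT, of each of the 28 genes over all 8 arrays after quantile normalization (black circles), with each array centred on its median (green triangles) and as deposited (orange squares). All symbols lie right of 0, the deposited values give the largest difference for every gene, and median centring gives the smallest for AT3G61870 (0.32).

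The genes were spread over the 5 nuclear chromosomes, with 6, 4, 7, 5 and 6 of them on chromosomes 1 to 5, where the eligible single-gene probes numbered 134, 102, 108, 90 and 113 (2 more had no chromosome in the gene table). Their mean levels ranged from percentile 7.69 (GLX2-1) to percentile 89.9 (AT3G61870) of all probe means, with a median at percentile 41.0, beside 48.5 for the eligible probes.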

How the data were processed

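The deposited table gives 1 linear intensity per probe and array, with exact zeros on every array (174 to 277 probes). The scaling behind these deposited intensities is not given in the sources used here. Arrays have no sequencing depth, and their number limits the precision. The 8 columns were quantile normalised over all probes (Python 3.11.15, equal to limma 3.58.1's normalizeQuantiles to within 1e-06). Zeros were then set to percentile 1 of the positive values of the array, and values were taken to log2. A difference is the mean log2 of tic40 minus that of WT, and a fold is 2 to that power. Subsets of arrays kept this scaling. The brightness limit was taken over the 3318 probes above 0 on at least 1 array.

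Gene names came from the platform annotation: 692 probes had 1 gene, 870 several and 1877 none. Each of the 28 genes has an entry in the RefSeq table of assembly TAIR10.1, used for names and chromosomes only. Functions are background knowledge, not data. Promoter and protein sequences were not used here. Every gene meeting the rule is named, with values on each array for the 12 largest differences and the largest of each group of genes. The genes and groups were chosen with earlier results of these data known, so no test was made. The rule was run on simulated tables with independent noise of equal size on all arrays. These lack the pairing of the WT arrays, so they cannot show how the rule behaves under it.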

Additional observations from a re-analysis of the deposited data

Results flagged for a closer look

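In 5 of 56 groups of 4 samples (28 genes in 2 genotypes) a sample lay far from the other 3 by Dixon's criterion on the log2 scale. Chance flags about 1 in 20 such groups. GLX2-1 was at 0.00561 in WT sample 3, with the other WT samples at 0.0752 to 0.0995. AT3G44610 was at 0.335 in WT sample 1, with the others at 0.444 to 0.463. AT3G21810 was at 0.375 in WT sample 3, with the others at 0.474 to 0.488. AT3G28460 was at 0.633 in tic40 sample 2, with the others at 0.600 to 0.603. AT5G49120 was at 0.237 in tic40 sample 2, with the others at 0.280 to 0.286.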

How the results depend on the processing

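The count of 28 genes became 106 with the values as deposited (28 of the 28 kept), 76 in samples 1 and 2 of both genotypes (17 kept), 136 in samples 3 and 4 (24 kept), 15 with a smallest difference of 1, 75 without WT samples 3 and 4 (18 kept) and 124 without WT samples 1 and 2 (25 kept). Fewer arrays make separation easier to meet. Without 1 array at a time the count was 30 to 36 and at least 27 of the 28 genes were kept. AT4G13200 was lost without WT sample 1, with a log2 difference of 0.48. AT3G61870 was lost without WT sample 3, with 0.44 and a mean no longer under the brightness limit. Without WT sample 4 it was lost through the brightness limit alone, with 0.62 and the genotypes still separated. Zeros allowed gave 30 genes, the others being AT5G06930 and UGT74D1. The limits of 0.25 on the difference, of percentile 75 or none on brightness, linear means, median centring and quantile normalization over probes above 0 gave 23 to 39. Across settings, the 28 genes had a median log2 difference of 0.59 to 1.39. Leaving out 1 array moved a gene's log2 difference by over 1.5 times only for GLX2-1, AT3G28460 and AT1G22700, each without WT sample 3. Of 420 values of single genes over 15 settings, 81 moved by more than the gene's own SD between samples of a genotype. That SD includes the split of the WT arrays, so a large move can stay under it. GLX2-1, at 1.75 without WT sample 3 in place of 2.74, was not counted as moved. No paired test was made, since no test of the difference is given; the paired mean of same-numbered differences equals the unpaired one (replicate block, median 1.03), with a median SD of 0.64.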
